A study of Mus musculus with 2 samples.

Results

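Adm, Calcrl, Ramp1, Ramp2 and Ramp3 encode the peptide adrenomedullin, its receptor and the 3 accessory proteins of that receptor. They were found by gene symbol among the 27998 genes of both libraries, and each of the 5 symbols matched 1 gene. The study compared lung cells of C57BL/6J mice 10 to 12 weeks old, in 1 library labelled WT and 1 labelled KO, as a model of Hereditary Hemorrhagic Telangiectasia type 2. Lungs were digested with dispase at 5 mg/ml for 1 hour and DNase I at 50 µg/ml for 30 minutes. Sorted cells that carried VE-cadherin and lacked CD45 went into 10x Genomics 3' v3 libraries. The deleted gene, the way it was deleted and the number of animals per library are not given in the sources used here.

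Adrenomedullin is a secreted peptide that relaxes blood vessels and supports the endothelial barrier. Calcrl is a receptor of the class B family that needs a Ramp protein to reach the cell surface and to set which ligand it binds. With Ramp2 or Ramp3 it responds to adrenomedullin, and with Ramp1 to calcitonin gene-related peptide. In endothelial cells the receptor signals mainly through Gs and cAMP, and Calcrl and Ramp2 are needed for blood and lymph vessel development.

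The WT library kept 2708 cells and the KO library 1314, with medians of 5423 and 8654 UMIs per cell (unique molecular identifiers, each standing for 1 captured RNA molecule). Although the labels call the cells lung endothelial, 1551 WT and 522 KO cells fell in endothelial clusters, and 817 WT and 596 KO cells were AT2-like, that is, resembled the epithelial cells that make surfactant. Cdh5, which encodes VE-cadherin, stood at 1856 CPM (a gene's UMIs per 1000000 UMIs of the class) in WT and 1903 CPM in KO cells of the gCap-like class, and at 9.26 and 4.58 CPM in AT2-like cells. Of the KO library's barcodes 30.5% exceeded the limit on mitochondrial UMIs, against 15.1% of the WT library's. Cells with UMIs of Xist and none of Y-linked genes, called Xist-positive here, numbered 2381 in the WT and 200 in the KO library, and cells with the reverse, called Y-positive, numbered 9 and 762. Genotype, sex, batch and depth therefore cannot be told apart between the libraries. With 1 library per group no test was possible. The intervals given are exact 95% intervals that cover counting error only.

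Acvrl1, the gene mutated in this form of telangiectasia, was read in both libraries. Its level was 1306 CPM in the WT library and 1195 CPM in the KO library in gCap-like cells, and 1905 and 1734 CPM in aCap-like cells. It was therefore not absent from the library labelled KO, although a 3' tag can lie outside a deleted part. In an endothelial cluster of 120 KO cells and 1 WT cell, called the KO-only cluster here, it was 412 CPM (364 to 463), against 1296 CPM in the other KO endothelial cells.

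Adm lies on chromosome 7 at 110627661 to 110629820 of GRCm38 on the plus strand and is overlapped on the other strand by Gm28863. Calcrl lies on chromosome 2 at 84330626 to 84425411 on the minus strand and overlaps no other gene. Ramp1 spans 91179822 to 91225196 on chromosome 1. Ramp2 spans 101246028 to 101259546 on chromosome 11 and shares sequence on the same strand with Vps25, so reads from the shared stretch are uncertain. Ramp3 spans 6658521 to 6677475 on chromosome 11, with Gm11978 on the other strand. The annotation is GENCODE M21.

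The promoters of Adm and Calcrl are shown because these 2 genes moved most, and in opposite directions, between groups of KO endothelial cells. Sequences are from RefSeq on GRCm38.p6, which matched 4 of the 5 genes (Adm, Calcrl, Ramp1 and Ramp3). They run 5′ to 3′ on the gene's strand, from 250 bases before the start to 30 bases after it. Capitals mark the letters ACGTG or GCGTG on either strand, the core of the element bound by hypoxia-inducible factors. Adm is chr7:110627407-110627686 on the plus strand and Calcrl is chr2:84425237-84425516 on the minus strand.
Adm: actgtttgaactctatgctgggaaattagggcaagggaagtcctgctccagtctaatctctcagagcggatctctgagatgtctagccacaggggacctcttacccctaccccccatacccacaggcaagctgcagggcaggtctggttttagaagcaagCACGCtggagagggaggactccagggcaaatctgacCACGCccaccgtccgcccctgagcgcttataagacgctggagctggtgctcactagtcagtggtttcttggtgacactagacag
Calcrl: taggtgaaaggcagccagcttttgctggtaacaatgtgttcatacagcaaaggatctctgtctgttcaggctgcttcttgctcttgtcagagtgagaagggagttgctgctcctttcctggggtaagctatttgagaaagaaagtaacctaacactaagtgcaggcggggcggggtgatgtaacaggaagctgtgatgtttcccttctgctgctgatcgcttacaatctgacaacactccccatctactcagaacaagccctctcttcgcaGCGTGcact
Starts here are those of RefSeq, which lie at other positions than the GENCODE gene starts given above. The Adm window held 2 matches, 90 and 54 bases before the start, and the Calcrl window held 1 match, 21 bases after it. Over all 32851 RefSeq promoters of 300 bases, 43.8% held at least 1 match and 20.6% at least 2, with overlapping matches counted separately. The Ramp3 promoter held 2 matches and the Ramp1 promoter 0. The letters GGCGCC, searched on both strands as part of a BMP-SMAD element, were not in any of the 4 windows and were in 11.9% of all promoters. A match is a run of letters and does not show binding.

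Adm, the ligand, was read mainly in fibroblast-like cells and in the KO-only endothelial cluster, and was near 0 in gCap-like cells. In fibroblast-like cells its level was 156 CPM (134 to 180) in the 125 WT cells and 278 CPM (246 to 312) in the 85 KO cells. The KO level was 1.78-fold higher (1.47 to 2.16), with intervals apart. In the same comparison 2 of 15 measured dissociation genes were higher and 10 lower, with a median log2 ratio of -0.79 beside -0.13 over all genes, and their part in the Adm difference was not tested. Smooth muscle-like cells read 67.4 CPM in the WT library and 43.5 CPM in the KO library, with overlapping intervals. In gCap-like cells Adm stood at 1.40 CPM in WT, from 4 UMIs, and 2.00 CPM in KO, from 2 UMIs. In AT2-like cells it stood at 0.427 and 1.37 CPM. Arterial-like and venous-like cells had 0 Adm UMIs in both libraries, for which the exact upper limits in WT are 10.1 and 10.6 CPM.

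The fibroblast-like class joined a cluster led by Dcn and Col1a1 (cluster 8) and a cluster led by Inmt and Mfap4 (cluster 11). Adm stood at 163 CPM in the WT library and 318 CPM in the KO library in cells of cluster 8, a ratio of 1.95 (1.57 to 2.42). In cluster 11 it stood at 139 CPM in the WT library and 149 CPM in the KO library, or KO over WT 1.07 (0.677 to 1.67). The higher KO level was thus read in the Dcn cluster, and the difference between the clusters was not tested. A few cells carried much of it: the 5 highest fibroblast-like cells held 37.1% of the WT and 50.0% of the KO Adm UMIs, and 1 KO cell held 42. Among KO fibroblast-like cells, Xist-positive cells read 363 CPM and Y-positive cells 252 CPM, both above the WT level. Without the 5 highest cells of each library the log2 ratio was 0.55 in place of 0.83, which is under 1.5-fold. The 1.5-fold size rule, which also asks for intervals apart and a mean of 10 CPM, was passed upward by 3.31% and downward by 6.27% of the 8543 genes measured in this class.

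**Figure D1:**
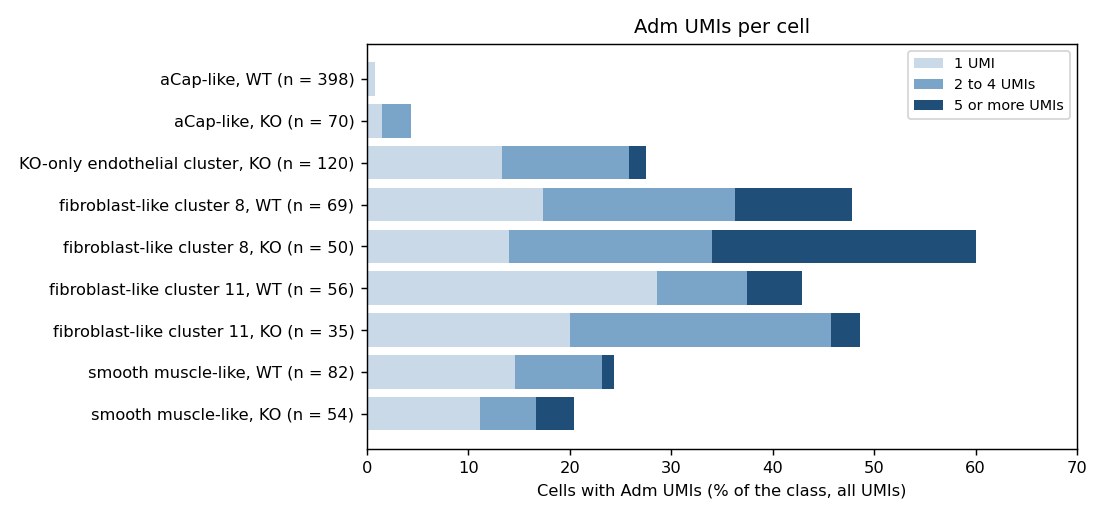
Share of cells with Adm UMIs (x axis, percent of the class at full depth) in each class and library (y axis, n cells), split by the number of UMIs per cell. Cells with 5 or more UMIs are most frequent in KO cells of fibroblast-like cluster 8, at 26.0%, against 11.6% of WT cells of that cluster.

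With all UMIs, 45.6% of WT and 55.3% of KO fibroblast-like cells had an Adm UMI. Thinned to 1500 UMIs per cell, the shares were 17.1% (10.9 to 24.9) and 22.1% (13.4 to 33.0), which overlap. The background in AT2-like cells was 0.734% in WT and 2.01% in KO at full depth, and, after thinning, 0 of 800 cells in WT (upper bound 0.460%) and 0.369% in KO. Median depths were 9830 and 11414 UMIs in fibroblast-like cells, against 17676 and 19610.5 in AT2-like cells.

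Calcrl, the receptor, was high in every blood endothelial class of the WT library and did not differ by 1.5-fold between libraries in the capillary classes or cluster 5. In gCap-like cells, the general capillary cells, it stood at 3181 CPM (3116 to 3247) in the WT library and 3202 CPM (3092 to 3315) in the KO library, or KO over WT 1.01 (0.967 to 1.05). In aCap-like cells, the large capillary cells that face the air spaces, it stood at 3436 CPM in the WT library and 3334 CPM in the KO library, or KO over WT 0.97 (0.916 to 1.03). Both capillary classes thus read alike within counting error in the 2 libraries. The unnamed endothelial cluster 5, led by Esm1, read 2920 CPM in the WT library and 3372 CPM in the KO library, or KO over WT 1.15 (1.07 to 1.25).

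The few KO cells that were Xist-positive departed from this. The 8 such aCap-like cells read Calcrl at 1636 CPM, 0.476 of the WT level (0.369 to 0.604), which passed the size rule, whereas the 47 Y-positive ones read 3626 CPM. By that rule 3.7% of 7919 genes were higher and 2% lower in this small comparison. The 6 Xist-positive KO gCap-like cells read 1141 CPM from 17 UMIs, with Cdh5 at 738 CPM, and the 114 Y-positive ones read 3665 CPM. There 3.28% of 7411 genes were higher and 1.03% lower.

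As whole classes, arterial-like and venous-like cells had less Calcrl than the capillary classes. Arterial-like cells read 2638 CPM in the WT and 2231 CPM in the KO library, and venous-like cells read 1591 and 1877 CPM. Among WT cells the order was aCap-like, gCap-like, cluster 5, arterial-like and venous-like, with counting intervals apart at each step. The median share of UMIs from ribosomal protein genes rose in the same order, at 3.64%, 4.69%, 5.07%, 8.29% and 12.0%. The part of that share in the order of Calcrl was not tested. Among KO cells cluster 5, aCap-like and gCap-like cells overlapped one another, as did arterial-like and venous-like cells. The 7 lymphatic-like KO cells read 261 CPM (157 to 408), and the 3 WT cells of that class held 2 Calcrl UMIs. Calcrl was thus about an order of magnitude lower in these lymphatic-like cells than in capillary cells, over very few cells.

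**Figure D2:**
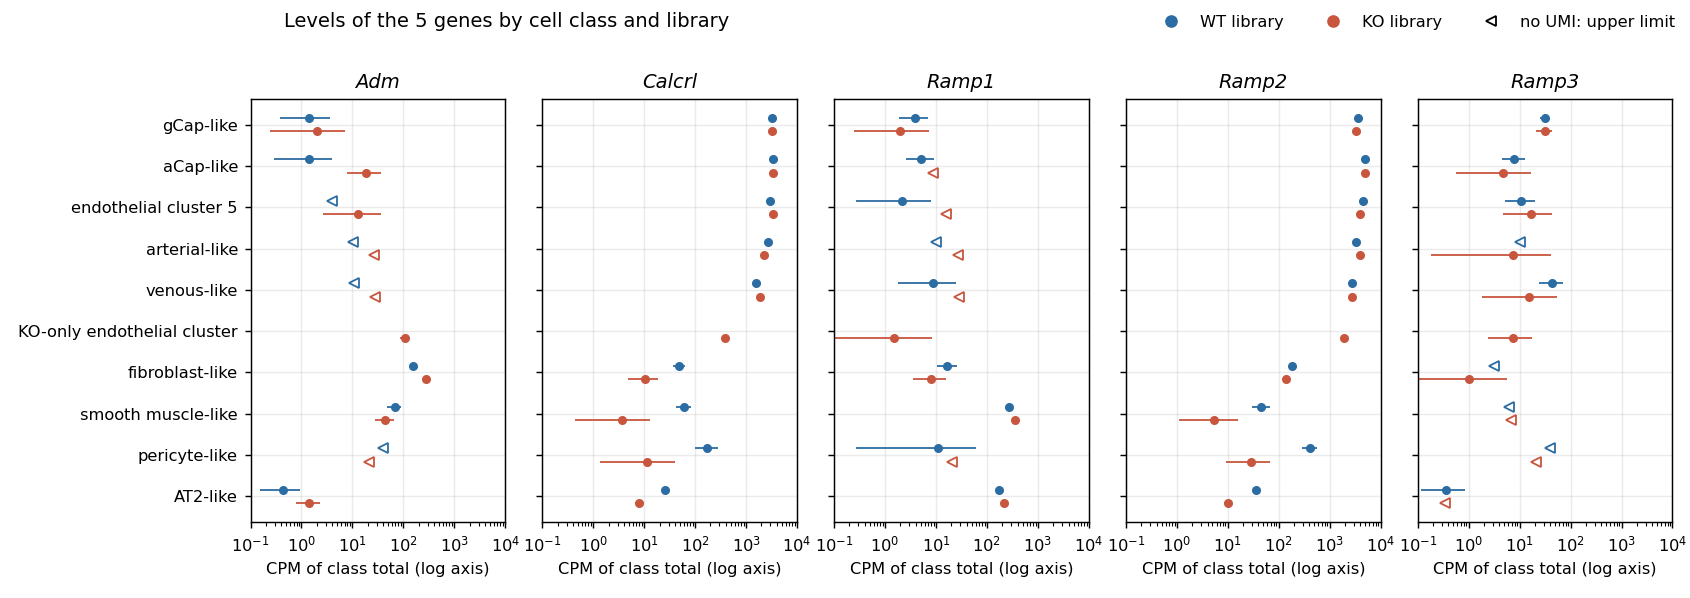
CPM of the class total (x axis, logarithmic) for each gene (panels) in classes of at least 10 cells per library (y axis). Points are the WT (blue) and KO (red) libraries, bars are exact 95% Poisson intervals, and open triangles mark the upper limit where no UMI was read. Calcrl and Ramp2 sit above 1000 CPM in the capillary, arterial-like and venous-like classes of both libraries, while Ramp1 is highest in smooth muscle-like and AT2-like cells.

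Outside the endothelium Calcrl was far below the capillary level and lower in KO. The highest of these levels rest on few cells: pericyte-like cells read 172 CPM in WT (16 UMIs) and 11.3 CPM in KO (2 UMIs), and the unnamed cluster 9 read 211 CPM (45 UMIs) and 61.2 CPM (3 UMIs). Calcrl stood at 47.7 CPM in the WT library and 10.1 CPM in the KO library in fibroblast-like cells, at 60.7 and 3.62 CPM in smooth muscle-like cells, and at 25.1 and 8.06 CPM in AT2-like cells. These 3 differences passed the size rule, and the endothelial gene Cdh5 was lower in KO in the same classes (30.1 and 4.05 CPM, 13.5 and 1.81 CPM, and 9.26 and 4.58 CPM). Of 16 measured dissociation genes 12 were lower and 1 higher in KO smooth muscle-like cells, and 5 lower and 1 higher in AT2-like cells. The part of free endothelial RNA and of dissociation in these readings was not tested. Smooth muscle-like cells had 2.14% of 8323 genes higher and 3.46% lower by the same rule, and AT2-like cells had 1.89% of 7351 genes higher and 2.33% lower. After thinning, a Calcrl UMI was found in 96.5% (WT) and 93.0% (KO) of gCap-like cells, against 2.88% and 0.923% of AT2-like cells. The unthinned shares were 97.8% and 89.8%, against 32.2% and 13.1%, at median depths of 3602.5 and 4277.5 UMIs in gCap-like cells.

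Ramp2, the partner that makes Calcrl an adrenomedullin receptor, followed the same classes. In gCap-like cells it stood at 3589 CPM (3520.2 to 3659) in the WT library and 3355 CPM (3243 to 3471) in the KO library, or KO over WT 0.935 (0.899 to 0.972). In aCap-like cells it stood at 4922 CPM in the WT library and 4864 CPM in the KO library, or KO over WT 0.988 (0.943 to 1.04). The gCap-like intervals were apart, but the difference was far below 1.5-fold. Cluster 5 read 4437 and 3974 CPM, arterial-like cells 3277 and 3847 CPM, and venous-like cells 2684 and 2739 CPM in WT and KO. In both libraries aCap-like cells had the highest and venous-like cells the lowest Ramp2 level of these classes. The 7 lymphatic-like KO cells read 1294 CPM. In smooth muscle-like cells Ramp2 read 45.5 CPM in WT cells and 5.43 CPM in KO cells, and in AT2-like cells 35.0 and 10.3 CPM, both past the size rule and in the direction of Calcrl there.

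Fibroblast-like cells also read Ramp2, at 184 CPM (161 to 210) in the WT library and 141 CPM (118 to 166) in the KO library. Per Ramp2 UMI they held 0.259 Calcrl UMIs in WT and 0.0719 in KO, whereas AT2-like cells held 0.717 and 0.786. Ramp2 was therefore in excess over Calcrl in fibroblast-like cells compared with AT2-like cells of the same library. In cluster 8 Ramp2 stood at 198 CPM in WT cells and 176 CPM in KO cells, and in cluster 11 at 155 and 29.8 CPM, which passed the size rule there, as did 3.29% of 8612 genes upward and 4.4% downward, and 5 cells held 69.5% of those WT UMIs. After thinning, 22.8% of WT and 14.3% of KO fibroblast-like cells had a Ramp2 UMI, against 4.75% and 1.66% of AT2-like cells, and at full depth 64.0% and 45.9% against 42.8% and 15.9%.

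Ramp1, the partner that makes Calcrl a receptor for calcitonin gene-related peptide, was read in other cells than Calcrl. Smooth muscle-like cells stood at 275 CPM (234 to 320) in the WT library and 360 CPM (312 to 414) in the KO library, or KO over WT 1.31 (1.06 to 1.62). AT2-like cells stood at 176 CPM (169 to 183) in the WT library and 215 CPM (206 to 224) in the KO library, or KO over WT 1.22 (1.15 to 1.29). Neither difference reached 1.5-fold. Xist-positive KO AT2-like cells read 298 CPM, 1.69 times the WT level and past the rule (6.35% of 7303 genes were higher and 7.98% lower), and Y-positive ones read 197 CPM, 1.12 times that level.

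A Ramp1 UMI was found in 29.6% of WT and 27.8% of KO smooth muscle-like cells after thinning, and in 23.0% and 27.3% of AT2-like cells. At full depth the shares were 54.9% and 66.7%, and 89.6% and 84.9%, with median depths of 6542.5 and 8638.5 UMIs in smooth muscle-like cells. The gCap-like class, which had the gene at 3.84 and 2.00 CPM, gave 0.291% after thinning in WT.

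Ramp3, the second adrenomedullin partner, was rare, with 132 WT and 46 KO UMIs in endothelial clusters of 185 UMIs in all. Its level was 31.1 CPM (25.0 to 38.3) in the WT library and 31.0 CPM (21.05 to 44.0) in the KO library in gCap-like cells, from 89 and 31 UMIs. Venous-like WT cells had the highest level, 43.0 CPM (24.1 to 70.9) from 15 UMIs, which overlapped the gCap-like interval. The aCap-like class read 7.87 and 4.63 CPM and cluster 5 read 10.8 and 16.9 CPM in WT and KO. The AT2-like class had 5 Ramp3 UMIs in WT and 0 in KO, with an exact upper limit of 0.338 CPM. The gCap-like class joined clusters 2 and 3, which read 27.8 and 34.4 CPM in WT but 49.4 and 8.81 CPM in KO, the last from 4 UMIs. Thinned shares of gCap-like cells were 3.63% in WT and 3.52% in KO, and unthinned ones 9.69% and 10.2%, above the 0.612% of WT AT2-like cells at full depth.

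With all KO cells, no member passed the size rule between the libraries in capillary cells. By that rule 1.79% of 8525 genes were higher and 2.53% lower in KO gCap-like cells. In aCap-like cells 1.85% of 8335 genes were higher and 1.85% lower, and in cluster 5 1.71% of 8432 were higher and 1.66% lower. Adm in aCap-like cells read 1.39 CPM in the WT library and 18.5 CPM in the KO library, from 3 and 8 UMIs, with a mean below 10 CPM, and the 8 KO UMIs lay in 3 cells, with 4 UMIs in the 8 Xist-positive cells. Matching for sex left few cells, since 667 WT gCap-like cells were Xist-positive and 0 Y-positive, against 6 and 114 of the KO cells, and the Xist-positive values given above did pass the rule for Calcrl. Genes of the dissociation response were lower in KO gCap-like cells in 7 of 15 measured cases, including Egr1 (195 and 17.0 CPM) and Fos (86.3 and 14.0 CPM), and their part in the member levels was not tested.

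The KO-only endothelial cluster combined the lowest Calcrl of the larger endothelial groups with most of the endothelial Adm, 73 of the 89 UMIs of the KO library's endothelial cells. All 12 endothelial markers were detected in it, but any UMI over its cells counts as detection, so this alone says little of identity. The cluster was led by Igfbp3, Apln, Peg3 and Trp53i11 and met no named class. The 5 genes and the pathway lists were left out when cells were clustered, but the cells were grouped by other genes, so these differences are a description. It was compared with the 395 KO endothelial cells outside it and outside the lymphatic-like class. Cdh5 stood at 2375 CPM in the cluster and 2098 CPM in the other KO endothelial cells, so the endothelial marker was not lower.

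Calcrl stood at 392 CPM (346 to 442) in the cluster, at 3092 CPM in the other KO endothelial cells and at 3092 CPM in WT endothelial cells. The ratio to other KO cells was 0.127 (0.112 to 0.144). Ramp2 stood at 1931 CPM in the cluster, 3757 CPM in other KO and 4043 CPM in WT endothelial cells, a ratio to other KO cells of 0.514 (0.484 to 0.545). Both receptor genes were thus lower, Calcrl more than Ramp2, and the cluster held 0.203 Calcrl UMIs per Ramp2 UMI (0.177 to 0.232) against 0.823 (0.795 to 0.852) in the other KO cells. Ramp3 read 7.43 CPM from 5 UMIs against 20.6 CPM from 40, and Ramp1 read 1 UMI in the cluster. After thinning, 44.0% of the cluster's cells had a Calcrl UMI and 78.4% a Ramp2 UMI. The unthinned shares were 82.5% and 95%, at a median of 5534 UMIs per cell.

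Adm stood at 108 CPM (85.0 to 136) in the cluster, at 6.71 CPM (3.57 to 11.5) in other KO endothelial cells and at 1.04 CPM (0.418 to 2.14) in WT endothelial cells. The ratio to other KO cells was 16.2 (8.89 to 31.8). The 73 UMIs lay in 33 of 120 cells, the 5 highest cells held 41.1% of them, and 1 cell held 16. The 1 WT cell of the cluster held 2 Adm UMIs. At full depth 27.5% of the cluster's cells had an Adm UMI and after thinning 14.7%, against 1.52% and 1.14% of other KO endothelial cells. The cluster's Adm level was therefore below that of KO fibroblast-like cells, and most of its cells had no Adm UMI. Against KO gCap-like cells alone, which hold 2 Adm UMIs, the log2 ratio was 5.76 in place of 4.02. Fibroblast markers summed to 153 CPM over 12 of 13 detected genes in the cluster, against 60908 CPM in KO fibroblast-like and 169 CPM in KO gCap-like cells.

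**Figure D3:**
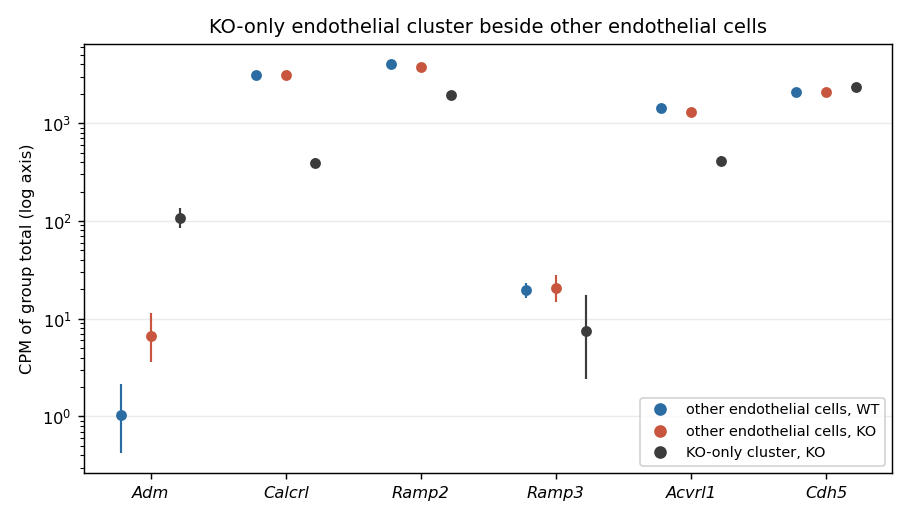
CPM of the group total (y axis, logarithmic) for 4 of the genes and for Acvrl1 and Cdh5 (x axis), with exact 95% Poisson intervals. Blue and red points are WT and KO endothelial cells outside the KO-only cluster and the lymphatic-like class, and dark points are the 120 KO cells of the cluster, which have more Adm, less Calcrl, Ramp2 and Acvrl1, and similar Cdh5.

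By this contrast 7.48% of 8371 genes were higher and 8.17% lower in the cluster, so a single gene past the rule is not rare. Of 15 measured dissociation genes 1 was higher and 6 lower in the cluster, and their part in these levels was not tested. Both kinds of sex-linked cell were present in it, with 57 Xist-positive and 45 Y-positive cells, but the other KO endothelial cells held 17 and 222. Cluster and sex were therefore partly mixed in the contrast over all cells. Among Y-positive KO endothelial cells Adm stood at 119 CPM in the cluster and 6.5 CPM outside it, and Calcrl at 418 and 3404 CPM. Among Xist-positive cells only 17 lay outside the cluster. Adm stood at 104 CPM in the cluster and 48.8 CPM, from 4 UMIs, outside it, which did not pass the rule, and Calcrl at 363 and 1135 CPM, which did. The rule was passed upward by 1.83% and downward by 2.96% of 8189 genes among Xist-positive cells, and by 6.92% and 6.41% of 8348 among Y-positive cells. The direction of both genes was the same in each kind of cell, but the sizes rest on few cells among the Xist-positive ones.

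Other genes of the system were taken from lists. Of 7 measured ligand and receptor genes, 3 were higher in the cluster (Adm, Ackr3 and Gpr182) and 2 lower (Calcrl and Ramp2). The shares of all genes were 7.48% and 8.17%. The median log2 ratio of the list was -0.23, beside -0.06 over all genes. Ackr3, a scavenging receptor that takes up adrenomedullin among other ligands, stood at 86.2 CPM in other KO endothelial cells and 874 CPM in the cluster, a ratio of 10.1. Gpr182, a receptor once proposed to bind adrenomedullin, stood at 120 and 238 CPM. Ackr3 was also high in venous-like WT cells, at 628 CPM, against 85.6 CPM in WT gCap-like cells. Between libraries, 0 of 6 measured genes of this list passed in gCap-like cells, 0 of 5 in aCap-like cells and 0 of 6 in cluster 5, where the list medians were 0.00, 0.07 and 0.18 beside -0.02, -0.03 and -0.03 over all genes. With Xist-positive KO cells alone, 1 was higher (Ackr3) and 1 lower (Calcrl) of 6 in the 6 gCap-like cells, and 2 were higher (Ackr3 and Adm) and 1 lower (Calcrl) of 5 in the 8 aCap-like cells, the higher ones from 4 to 10 UMIs. The shares of all genes higher and lower were 3.28% and 1.03% in those gCap-like cells and 3.7% and 2% in those aCap-like cells.

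The other ligands were scarce. Adm2, which encodes intermedin, had 10 UMIs over all kept cells and Calcb, a second calcitonin gene-related peptide gene, had 3. Iapp, which encodes amylin, and Calcr, the calcitonin receptor, had 0. Calca had 182 UMIs in all, of which 178 lay in 1 AT2-like KO cell. Crcp, which encodes a receptor component, stood at 22.7 CPM in the WT library and 25.0 CPM in the KO library in gCap-like cells.

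Of 5 measured peptide-processing genes, 0 were higher and 2 lower in the cluster, beside 7.48% and 8.17% of all genes. The list median was -0.24 beside -0.06 over all genes. Pam, which amidates the peptide's end and so makes it active, stood at 194 CPM in other KO endothelial cells and 125 CPM in the cluster, and Cpe, a carboxypeptidase, at 32.5 and 4.46 CPM, the last from 3 UMIs. These differences depend on the reference: KO gCap-like cells read Cpe at 2.00 CPM and Pam at 176 CPM, against which neither passes 1.5-fold downward, and KO aCap-like, arterial-like and cluster 5 cells had 0 Cpe UMIs, while venous-like WT cells read 768 CPM. Pam was read at 299 CPM in the WT library and 298 CPM in the KO library in fibroblast-like cells, the class with the most Adm. Mme, the peptidase neprilysin, was read mainly in AT2-like cells, at 224 CPM in the WT library and 200 CPM in the KO library, and Ece1, a second peptidase, in endothelial cells, at 777 CPM in the WT library and 786 CPM in the KO library in gCap-like cells. Furin stood at 59.4 and 79.9 CPM and Ide at 24.1 and 23.0 CPM in gCap-like cells, and Pcsk1 had 0 UMIs and Pcsk2 had 5.

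Downstream, 3 of 22 measured Gs and cAMP genes were higher in the cluster and 2 lower, beside 7.48% and 8.17% of all genes. The list median was -0.09 beside -0.06 over all genes, and no shift of the list is read from these counts. Gng11, a G protein subunit, stood at 560 CPM outside and 1235 CPM inside the cluster, and Pde4b, a phosphodiesterase that degrades cAMP, at 375 and 716 CPM. Adcy4, an adenylyl cyclase, stood at 144 and 89.1 CPM, and Rapgef3, the cAMP sensor Epac1, at 159 and 86.2 CPM. Between libraries Rapgef3 was higher in KO gCap-like cells (98.2 and 150 CPM), as was Crem, a cAMP-responsive factor (27.9 and 63.9 CPM). They made 2 of 21 measured genes, beside 1.79% of all genes higher there, while 0 of 19 passed in aCap-like cells. Of the desensitization genes, Arrb1, a beta-arrestin, was the 1 of 9 that passed in the cluster (152 and 89.1 CPM), beside the same shares of all genes. It was also the 1 of 9 that passed in aCap-like cells (116 and 69.5 CPM), where 1.85% of all genes were higher and 1.85% lower. Arrb1 was lower both times, but its reading in the cluster depends on the reference. KO gCap-like cells read it at 174 CPM and KO aCap-like cells at 69.5 CPM (46.9 to 99.2), so the cluster was not below the latter.

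Adm is a known target of hypoxia-inducible factors, so other hypoxia genes were listed. Of 20 measured, 6 were higher in the cluster than in other KO endothelial cells and 2 lower, beside 7.48% and 8.17% of all genes. The median log2 ratio was 0.27 beside -0.06 over all genes. The higher readings did not hold among Xist-positive cells, where 0 of 20 were higher and 3 lower, beside 1.83% and 2.96% of all genes. The median there was -0.68 beside -0.08. Among Y-positive cells 5 were higher and 2 lower, beside 6.92% and 6.41% of all genes, with a median of 0.33. Ndrg1 stood at 16.0 and 143 CPM, Pfkfb3, a glycolytic regulator, at 47.5 and 193 CPM, Ddit4 at 116 and 302 CPM, and Bhlhe40 at 28.9 and 101 CPM. Bnip3 and Hif1a were the other 2 that were higher, at 19.1 and 40.1 CPM and at 75.3 and 129 CPM. Hif1a and Epas1 encode such factors themselves and are counted in the list beside targets. Vegfa, a further target of the same factors, was lower, at 264 and 44.6 CPM, as was Epas1, which encodes HIF-2-alpha, at 2435 and 1408 CPM. These 2 differences depend on the reference. KO gCap-like cells read Vegfa at 279 CPM and Epas1 at 2877 CPM, and KO aCap-like cells read 20.8 CPM and 1465 CPM (1354 to 1584). Against aCap-like cells alone neither gene was thus 1.5-fold lower in the cluster. The part of hypoxia-inducible factors in the Adm level was not tested. In KO aCap-like cells 3 of 18 were higher than in WT (Ankrd37, P4ha2 and Bhlhe40), beside 1.85% of all genes. In KO aCap-like cells of known sex these were 7 of 20 in the 8 Xist-positive ones, beside 3.7%, and 0 of 18 in the Y-positive ones. In KO gCap-like cells 1 of 18 was higher (Ddit4), beside 1.79% of all genes.

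Calcrl and Ramp2 differed in how they varied within the capillary classes. Cells of each class and library were split into 3 groups of near equal size by the share of their UMIs from ribosomal protein genes. In WT gCap-like cells Calcrl stood at 3934, 3486 and 2393 CPM from the group with the lowest share to that with the highest, while Ramp2 stood at 2118, 3779 and 4434 CPM. The median ribosomal share of those groups was 2.19%, 4.69% and 8.06%. KO gCap-like cells gave 4162, 3221 and 2207 CPM for Calcrl and 2229, 4086 and 3553 CPM for Ramp2. In WT aCap-like cells Calcrl stood at 4808, 3412 and 2574 CPM and Ramp2 at 3388, 5104 and 5747 CPM, and KO aCap-like cells had the same directions. Calcrl was thus highest and Ramp2 lowest in cells with few ribosomal UMIs, in both libraries.

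**Figure D4:**
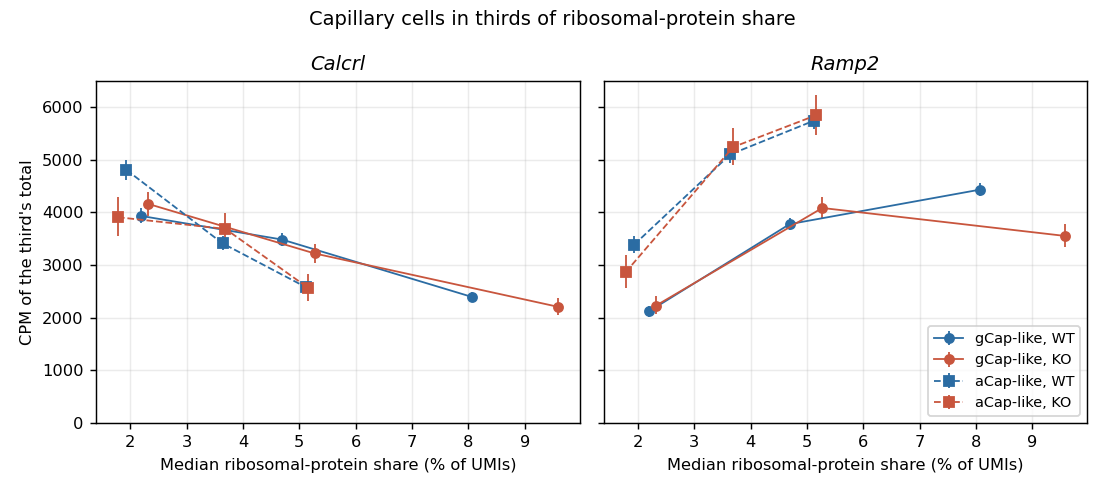
CPM of Calcrl (left) and Ramp2 (right; y axis) in gCap-like (circles) and aCap-like (squares) cells, each split into 3 groups by ribosomal share and plotted at the group's median ribosomal-protein share in percent of UMIs (x axis), for WT (blue) and KO (red). Bars are exact 95% Poisson intervals. Calcrl is lower with each step up in ribosomal share, and Ramp2 is higher except in the last KO gCap-like group.

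Median UMIs per cell also moved across these groups, from 2732 to 4376 in WT gCap-like cells, and from 3809 through 5012.5 to 3011 in KO ones. Cdh5 in the WT groups stood at 1790, 2049 and 1729 CPM. Malat1, a nuclear RNA, was lower with Calcrl in gCap-like cells, from 54098 to 43406 CPM in WT and from 58475 to 30607 CPM in KO. In KO aCap-like cells it went from 50192 to 44033 CPM. WT aCap-like cells read 35112, 46423 and 38744 CPM, so there Malat1 did not follow Calcrl. The part of RNA quality in this pattern was not tested. The same difference separated the gCap-like clusters 2 and 3, which held 0.576 and 1.46 Calcrl UMIs per Ramp2 UMI in WT and 0.665 and 1.49 in KO.

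Likeness was measured as Pearson's r of log2(CPM + 10) over 16 class and library levels, among 6753 genes, and describes shared levels in points that share libraries. Calcrl was most like Myzap, Arhgef15 and Egfl7 (each 0.99), and Ramp2 most like Fgd5, Aqp1 and Ace (each 0.98). Adm was most like Tubb6 (0.91), Cp (0.89) and Fgfr1 (0.87). Ramp1 was most like Ccdc141 and Spint2 (each 0.94) and Thsd4 (0.93), and Ramp3 most like Dll1 (0.91), Gbp4 (0.90) and Prcp (0.88).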

How the data were processed

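The deposited matrices hold raw UMI counts. The submitters' processing notes name Cell Ranger 3.0.1 and the mm10 build. Barcodes needed 500 genes or more and no more than 10% of UMIs from mitochondrial genes, and doublets called by Scrublet (37 WT, 12 KO) were removed. Clustering used scanpy 1.11.5 and leidenalg 0.10.2 at resolution 1, without the 5 genes, the 113 pathway list genes and genes that differed between the libraries, and endothelial cells were clustered again on their own, a step chosen after the first clusters had been seen. Names needed 3 markers, of which 165 of 166 are in the files. They were rebuilt here and can differ from the study's. The libraries shared 12 barcodes, none with identical counts.

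For each class the UMIs of a library were added up and divided by the class total to give CPM, with Poisson intervals for levels, Clopper-Pearson intervals for shares and conditional binomial intervals for ratios. UMIs at the 3' end are not divided by gene length. The size rule was 1.5-fold with Poisson intervals apart and a mean of at least 10 CPM. It was run on simulated Poisson counts around the WT gCap-like levels. Those counts hold no spread between cells, animals or libraries, so that run says nothing of false calls from such spread. The library totals were 25667220 and 17864581 UMIs. Genes named are the 5 members, Acvrl1 and Cdh5, the ligand, receptor and processing genes of the lists (1 of which is not reported here), other listed genes of at least 50 CPM that passed the size rule in gCap-like or aCap-like cells or in the KO-only cluster, and the 3 genes most like each member. Dissociation genes are shown by examples. The genes of interest and lists were chosen with earlier results of these data known. Alternatives changed the filters, the resolution, the doublets, the averaging and the depth.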

Additional observations from a re-analysis of the deposited data

Results flagged for a closer look

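Adm in the unnamed cluster 14, which belongs to no comparison above, stood at 524 CPM in KO against 1 UMI in WT. The cluster had 10 WT and 5 KO cells and was led by Aspn, Hhip and Mgp. All 23 KO UMIs lay in 1 cell, so the value describes that cell. It drew attention because it was read in cells outside the comparisons and lay above the WT level.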

How the results depend on the processing

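Each group is 1 library, so counting intervals say nothing of the spread between animals, and sex, batch and genotype cannot be told apart. Rare genes (Ramp3, and Adm in capillary cells) rest on few UMIs. No paired analysis was possible because each group is 1 library. Of the called differences, Adm in fibroblast-like cells and Adm, Calcrl and Ramp2 in the KO-only contrast were rerun under the alternatives. These covered filters, resolution, doublets, averaging and depth, and none of the rerun differences changed direction. The other differences past the size rule were not rerun under them. Over the rerun results, single genes included, 20 moved and 18 did not without the 5 highest cells. The counts moved and not moved were 14 and 24 on averaging over cells, 10 and 28 on thinning, and 9 and 22 with stricter filters. They were 6 and 32 with doublets kept, 5 and 31 with looser filters, and 5 and 33 on clustering with genes that differ between libraries. The values of the leading results that moved follow as log2 ratios.
With KO cells limited to Xist-positive ones, Calcrl in aCap-like cells was -1.07 (8 cells), Ramp1 in AT2-like cells 0.76 and Adm in fibroblast-like cells 1.22, and within the KO-only contrast Adm was 1.09, Calcrl -1.65 and Ramp2 -0.75. With Y-positive ones alone, Calcrl was 0.20 and Ramp2 -0.19 in gCap-like cells, Calcrl 0.077 in aCap-like cells and Ramp1 0.16 in AT2-like cells. Averaging over cells gave Calcrl -0.11 and Ramp2 -0.17 in gCap-like cells and Calcrl -0.14 in aCap-like cells, and thinning gave Ramp2 -0.17 in gCap-like cells, Calcrl -0.16 in aCap-like cells and Ramp2 -1.06 in the KO-only contrast. Stricter filters (1000 genes, 5% mitochondrial) gave Calcrl 0.10, and clustering with genes that differ between libraries gave Ramp2 0.028, both in gCap-like cells. Without the 5 highest cells of each group, Adm was 0.55 in fibroblast-like cells and Ramp2 in the KO-only contrast was -1.12. Adm there was 7.01, which says nothing of stability, because 6 reference cells held all 13 UMIs and 1 UMI was left. Against KO gCap-like cells alone, a reference chosen after seeing the data, Adm was 5.76 and Ramp2 -0.80.

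With a minimum of 50 CPM, 78 genes were higher and 110 lower in KO gCap-like cells (153 and 216 as reported), 92 and 85 in aCap-like cells (154 and 154), and 172 and 288 in fibroblast-like cells (283 and 536). In the KO-only cluster 435 were lower (684 as reported), and of the pathway genes in aCap-like cells 1 was higher and 3 lower (4 and 6). Resolution 2 gave no gCap-like class, and resolution 0.5 and the stricter filters gave no smooth muscle-like class. The 6 Xist-positive KO gCap-like cells were left out of these alternatives.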

Other observations

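Receptors other than Calcrl that can pair with Ramp proteins were mostly silent. Glp1r, the receptor for glucagon-like peptide 1, was read in gCap-like cells at 27.2 CPM in the WT and 29.0 CPM in the KO library. Pth1r, the parathyroid hormone receptor, was read in smooth muscle-like cells at 59.0 and 45.3 CPM. Adora2b, an adenosine receptor, was read in AT2-like cells at 48.1 CPM in both libraries. Vipr2, a receptor for vasoactive intestinal peptide, stood at 56.9 and 26.3 CPM in fibroblast-like cells. Crhr1, Sctr and Casr had 0 UMIs.

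Within the KO-only cluster, 4 of 17 cells with an Adm UMI also had a Calcrl UMI after thinning, against 47 of 99 cells without one, and the exact intervals overlap (6.81% to 49.9% and 37.3% to 57.8%). At full depth the counts were 30 of 33 and 69 of 87, at median depths of 5960 and 4764 UMIs, so the order turned with depth and no order is read from it.

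The unnamed endothelial cluster 15, led by surfactant genes, held 12 WT cells and 1 KO cell. Its WT cells read Ramp1 at 245 CPM, from 17 UMIs in 4 cells, and Calcrl and Ramp2 at 0.915 Calcrl UMIs per Ramp2 UMI.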
